A study of Arabidopsis thaliana with 12 samples.

Results

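Transcripts of 10 Arabidopsis thaliana genes of the jasmonate signalling core were followed in young leaves: 8 JASMONATE ZIM-DOMAIN (JAZ) repressor genes (JAZ1, JAZ2 and JAZ5 to JAZ10), the transcription factor gene MYC2 and the output gene VSP2. They are JAZ1 (AT1G19180), JAZ2 (AT1G74950), JAZ5 (AT1G17380), JAZ6 (AT1G72450), JAZ7 (AT2G34600), JAZ8 (AT1G30135), JAZ9 (AT1G70700), JAZ10 (AT5G13220), MYC2 (AT1G32640) and VSP2 (AT5G24770). They were taken by locus name from the deposited tables, which list 37242 genes, and all 10 were among the 19416 genes that passed the filter on low counts. The 12 poly(A) RNA libraries formed 4 groups of 3: npf8.4-1 at day 2, Col-0 at day 2, npf8.4-1 at day 0 and Col-0 at day 0. Col-0 is the reference accession, and npf8.4-1 is a mutant of NPF8.4, which encodes a member of the nitrate and peptide transporter family. All plants grew hydroponically for 15 days on 5 mM KNO3; day 0 leaves were taken then, and day 2 leaves after 2 further days on medium without nitrogen. Each library was a pool of leaves from 15 plants, so p-values measure the spread between such pools. The labels name 1 mutant allele, and a day 2 group kept on nitrate was not analysed here, so nitrogen depletion and the 2 days of age cannot be told apart.

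Libraries held between 28761674 and 34282716 exon reads. NPF8.4 itself had 22 to 47 reads in npf8.4-1 libraries and 342 to 568 reads in Col-0 libraries at day 2, and 10 to 25 reads in npf8.4-1 libraries and 174 to 250 reads in Col-0 libraries at day 0, as the genotype labels say. Leaf mesophyll markers were abundant in every library, whereas the summed level of 5 root markers was 0.405 to 1.77 TPM (transcripts per 1000000) and that of 3 flower markers 0.417 to 2.1 TPM, with the root hair gene EXPA7 at 0 in all 12 libraries. The third day 2 library of each genotype lay nearest to day 0 on the first principal component.

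JAZ proteins bind MYC2 and related transcription factors and hold their target genes down, together with the adaptor NINJA and the co-repressor TOPLESS (TPL). The hormone jasmonoyl-isoleucine joins JAZ proteins to the F-box receptor COI1, which marks them for degradation and frees MYC2. Most JAZ genes are themselves transcribed in response to jasmonate, so that the repressor is replaced as the signal proceeds. In leaves the pathway is known for defence against wounding and chewing insects and for storage proteins such as VSP2. A transcript level reports the synthesis side of this loop and not the amount of repressor protein.

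MYC2 binds the G-box, CACGTG, and variants of it, and the 300 bases before the annotated start of each gene were therefore read for these letters on both strands. The G-box is its own reverse complement, and it was present in 3 of the 10 members, JAZ2, JAZ7 and JAZ8, against 7.09% of 27443 protein-coding promoters of the same length. The variant CATGTG was present on either strand in JAZ9 and JAZ10, against 13.1% of promoters. TACGTG was found in JAZ9, against 7.77%. AACGTG was found in JAZ5, JAZ6 and MYC2, against 8.71%. No match overlapped another in these promoters, and none was in this window of JAZ1 or VSP2. The promoters of the 3 members with a G-box are printed below with that of JAZ10, the 1 member whose transcripts fell, from the RefSeq genome TAIR10.1, 5′ to 3′ on the strand of the gene and ending at the base before its start. Capitals mark the G-box, and in JAZ10 the variant CATGTG.
JAZ2 promoter, chr1:28150447-28150746, minus strand: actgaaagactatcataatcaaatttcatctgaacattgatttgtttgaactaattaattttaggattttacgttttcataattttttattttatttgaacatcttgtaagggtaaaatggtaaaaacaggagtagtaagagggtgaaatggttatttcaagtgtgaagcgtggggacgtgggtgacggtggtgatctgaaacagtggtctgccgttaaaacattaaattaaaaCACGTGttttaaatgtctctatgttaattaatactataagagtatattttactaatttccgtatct
JAZ7 promoter, chr2:14572730-14573029, plus strand: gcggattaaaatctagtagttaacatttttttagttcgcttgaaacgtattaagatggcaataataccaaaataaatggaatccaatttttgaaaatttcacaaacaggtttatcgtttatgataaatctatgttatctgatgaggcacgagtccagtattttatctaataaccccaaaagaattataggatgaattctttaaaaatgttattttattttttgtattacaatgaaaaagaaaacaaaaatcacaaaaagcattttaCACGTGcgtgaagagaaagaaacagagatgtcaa
JAZ8 promoter, chr1:10596052-10596351, plus strand: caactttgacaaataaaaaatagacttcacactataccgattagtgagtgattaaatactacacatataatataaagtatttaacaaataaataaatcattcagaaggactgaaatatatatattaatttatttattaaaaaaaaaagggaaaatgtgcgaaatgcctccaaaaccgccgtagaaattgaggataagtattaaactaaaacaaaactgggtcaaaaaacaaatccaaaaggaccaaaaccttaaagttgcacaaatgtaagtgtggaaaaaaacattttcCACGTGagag
JAZ10 promoter, chr5:4218486-4218785, plus strand: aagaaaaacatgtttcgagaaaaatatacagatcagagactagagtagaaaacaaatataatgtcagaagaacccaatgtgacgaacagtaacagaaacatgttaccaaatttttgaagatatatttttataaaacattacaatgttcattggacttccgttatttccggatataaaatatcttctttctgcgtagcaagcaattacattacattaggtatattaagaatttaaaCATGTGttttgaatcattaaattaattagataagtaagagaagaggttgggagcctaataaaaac
In the deposited TAIR10 coordinates JAZ2 spans chr1:28148574-28150446 on the minus strand, JAZ7 chr2:14573030-14573952 on the plus strand, JAZ8 chr1:10596352-10597341 on the plus strand and JAZ10 chr5:4218786-4221077 on the plus strand. MYC2 spans chr1:11798119-11801407 and VSP2 chr5:8500468-8502224, both on the minus strand. The G-box lies 66 to 61 bases before the start of JAZ2, 34 to 29 bases before that of JAZ7 and 10 to 5 bases before that of JAZ8, and the variant lies 65 to 60 bases before that of JAZ10. A match of letters is a description of the window and does not show binding.

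Levels of the 10 genes spanned more than 2 orders of magnitude, compared here as TPM, which is corrected for transcript length. In npf8.4-1 leaves at day 2, MYC2 averaged 270.4 ± 46.9 TPM (SD, n = 3 libraries here and below), VSP2 260.1 ± 65.9, JAZ1 205 ± 40.6, JAZ9 138 ± 31.6, JAZ6 109.6 ± 16.1, JAZ2 46.8 ± 4.94, JAZ5 20.1 ± 7.08, JAZ7 7.11 ± 4.15, JAZ8 3.85 ± 1.45 and JAZ10 1.58 ± 0.271 TPM. The libraries of MYC2 and VSP2, of VSP2 and JAZ1, of JAZ9 and JAZ6, and of JAZ7 and JAZ8 overlapped in that group, and the other neighbours in the order did not. In Col-0 at day 0 the order was MYC2 at 109.5 ± 24.5 TPM, JAZ9 at 78.0 ± 10.5, VSP2 at 73.1 ± 55.0, JAZ1 at 62.8 ± 22.1, JAZ2 at 28.2 ± 0.473, JAZ6 at 22.3 ± 2.03, JAZ5 at 8.29 ± 3.18, JAZ10 at 2.73 ± 0.152, JAZ7 at 2.39 ± 0.994 and JAZ8 at 1.23 ± 0.450 TPM. There neighbours among the first 4 genes overlapped, as did those of JAZ10 and JAZ7 and those of JAZ7 and JAZ8. JAZ6 therefore stood below JAZ2 in Col-0 at day 0, without overlap, and above it at day 2, while JAZ10 moved to the bottom of the order. The genes at the low end rest on few reads, 8 to 233 per library for JAZ7, 12 to 92 for JAZ8 and 61 to 156 for JAZ10, against 5666 to 22458 for MYC2.

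**Figure D1:**
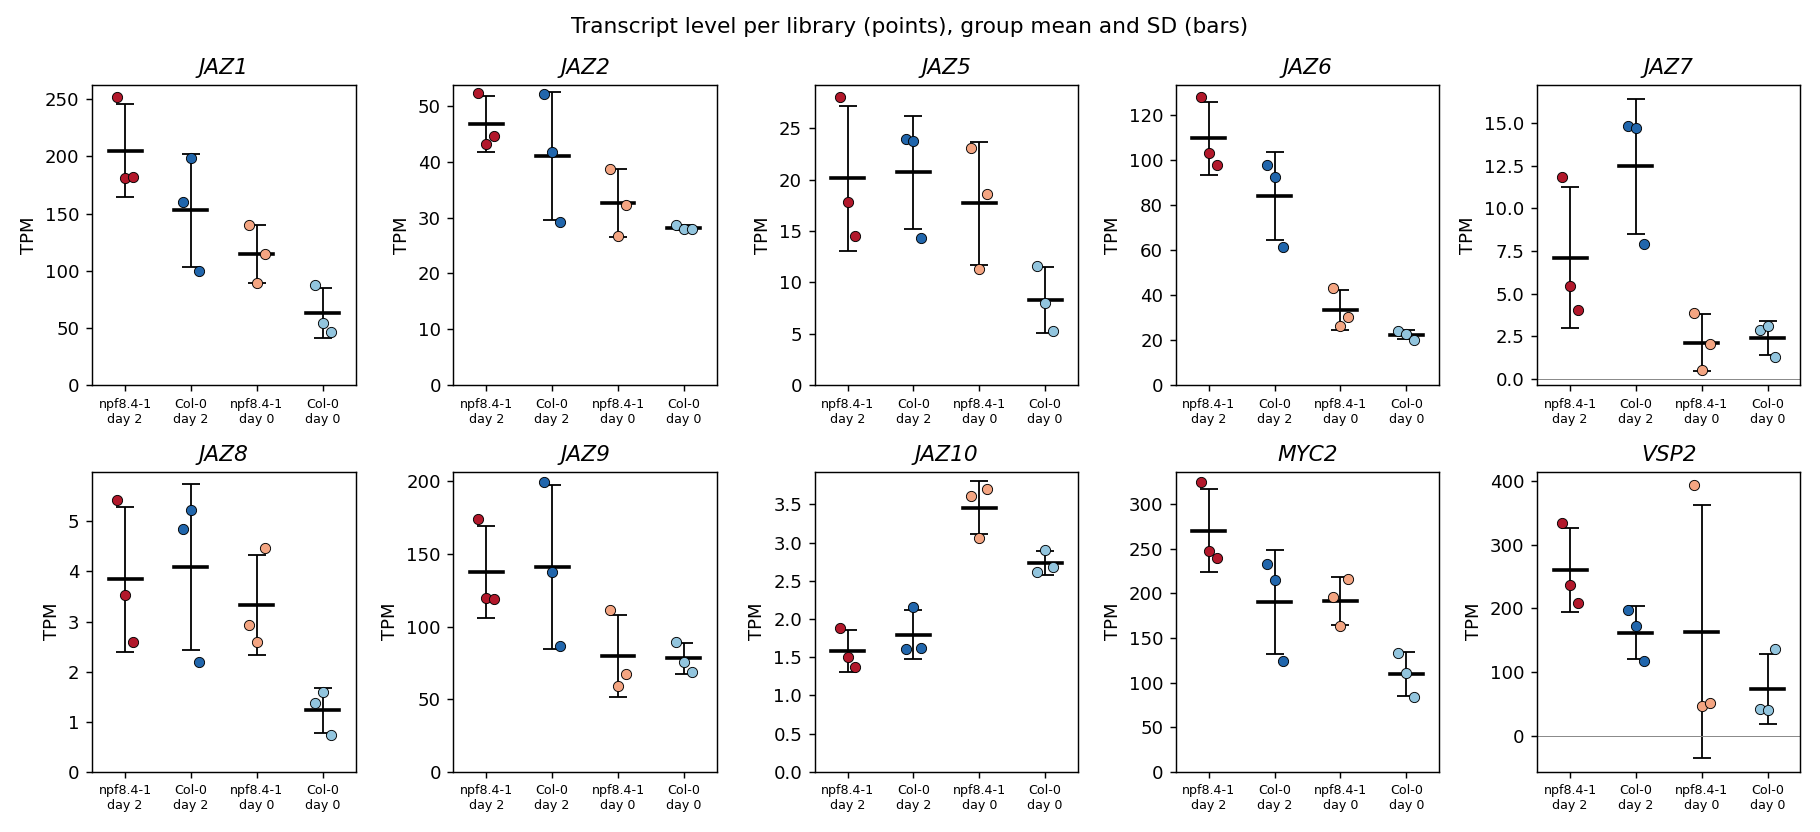
Transcript level in TPM (linear axes) of each of the 10 genes in each library (points), with the mean and SD of the 3 libraries per group (bars); groups run npf8.4-1 day 2, Col-0 day 2, npf8.4-1 day 0, Col-0 day 0. JAZ6 lay at 61.5 TPM or more in every day 2 library and at 43.2 TPM or less in every day 0 library, whereas JAZ10 was the 1 gene with every day 2 library below every day 0 library.

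Between day 0 and day 2, transcripts of most repressor genes rose, and those of JAZ10 fell in both genotypes. In npf8.4-1, 5 of the 10 genes rose (JAZ1, JAZ2, JAZ6, JAZ7 and JAZ9) and JAZ10 fell, at an adjusted p under 0.05 in edgeR's quasi-likelihood test, where 32.5% of all tested genes rose and 31.6% fell. In Col-0, 8 of the 10 rose (the same 5 with JAZ5, JAZ8 and MYC2) and JAZ10 fell, where 29.6% of all tested genes rose and 30.4% fell. The median log2 fold change of the 10 was 0.52 in npf8.4-1 and 1.14 in Col-0, against 0.03 and 0.02 over all tested genes. VSP2 did not pass in either genotype. In bulk leaf RNA a change in the number of cells of a type and a change in RNA per cell cannot be told apart.

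The counts of genes that rose depended on single libraries, more so in npf8.4-1. Leaving out replicate 2 or replicate 3 of the day 0 libraries of npf8.4-1, or replicate 1 of its day 2 libraries, left 1 member called higher there. Leaving out replicate 3 of the day 0 libraries of Col-0, or replicate 1 of its day 2 libraries, left 5. JAZ6 and JAZ10 kept their calls under all 14 alternatives in both genotypes, and JAZ1, JAZ5, JAZ7 and JAZ8 kept theirs in Col-0. By the TPM of single libraries, 6 genes had all day 2 libraries above all day 0 libraries and 1 below in npf8.4-1, against 39.3% and 30.0% of tested genes. In Col-0 there were also 6 above and 1 below, against 32.9% and 29.2%.

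**Figure D2:**
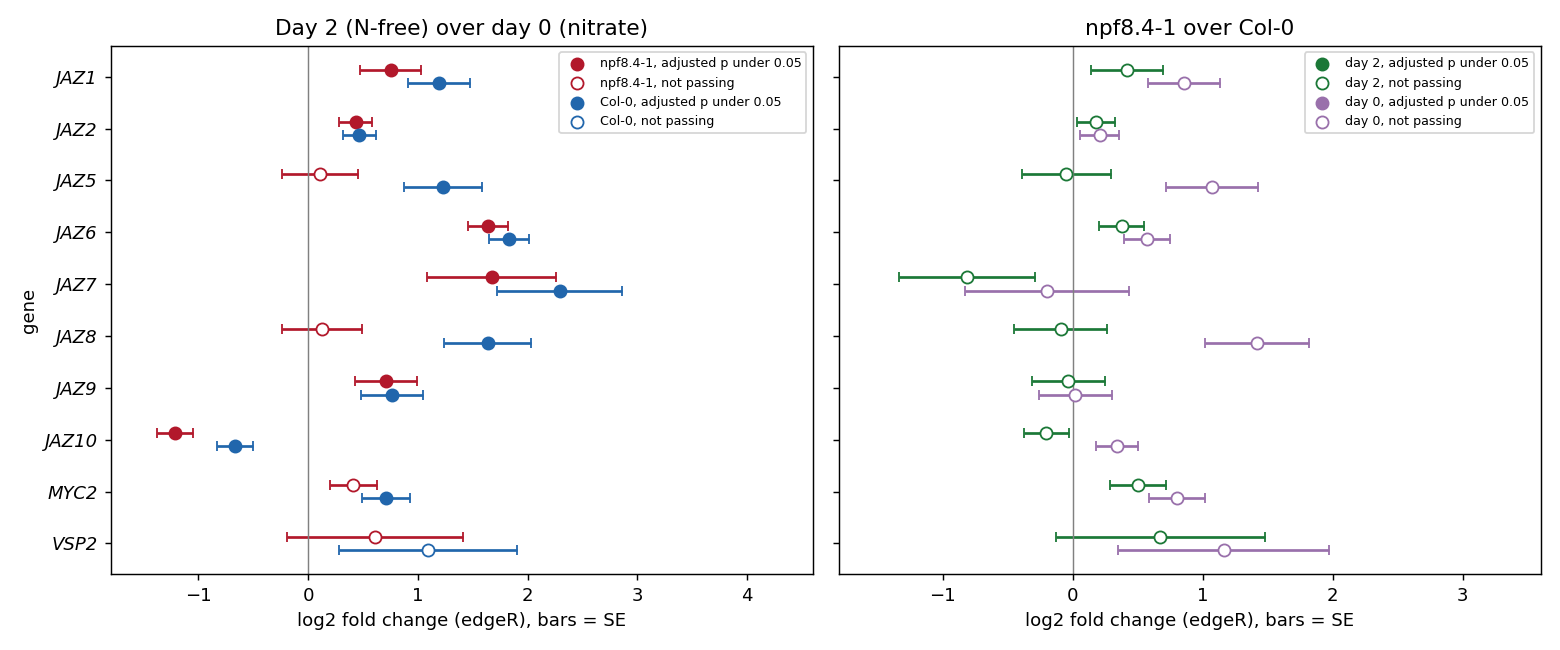
Log2 fold changes from the edgeR fit with their SE (horizontal bars) for each of the 10 genes: day 2 over day 0 in npf8.4-1 and in Col-0 (left), and npf8.4-1 over Col-0 at day 2 and at day 0 (right). Filled points passed an adjusted p of 0.05 over all tested genes; JAZ10 lies left of 0 in both genotypes on the left, and no point is filled on the right.

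JAZ6 had the smallest adjusted p among the increases of the 10 genes in both genotypes. It had 128, 103 and 97.7 TPM at day 2, against 43.2, 26.2 and 30.2 TPM at day 0, in npf8.4-1. In Col-0 it had 97.6, 92.4 and 61.5 TPM at day 2, against 24.0, 22.7 and 20.0 TPM at day 0. All 6 day 2 libraries stood above all 6 day 0 libraries. The log2 fold change was 1.64 ± 0.180 (SE) in npf8.4-1, with an adjusted p of 8.08e-06 by edgeR, and 1.84 ± 0.182 in Col-0, with an adjusted p of 4.59e-06.

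JAZ1, a known target of COI1, was on average the most abundant JAZ transcript at day 2. It had 252, 181 and 182 TPM at day 2, against 139.9, 89.6 and 115 TPM at day 0, in npf8.4-1. Its Col-0 libraries had 160.3, 198 and 99.8 TPM at day 2, against 87.8, 54.5 and 46.1 TPM at day 0. The days did not overlap within either genotype, but 2 npf8.4-1 libraries of day 0 lay above the lowest Col-0 library of day 2. Its log2 fold change was 0.75 ± 0.278 in npf8.4-1 (edgeR adjusted p = 0.0338) and 1.19 ± 0.281 in Col-0 (edgeR adjusted p = 0.00358). JAZ2, its closest relative and a regulator of stomatal immunity, changed less. It had 52.4, 43.3 and 44.7 TPM at day 2, against 38.8, 26.7 and 32.4 TPM at day 0, in npf8.4-1. In Col-0 leaves it had 52.1, 41.7 and 29.3 TPM at day 2, against 28.8, 28.0 and 27.9 TPM at day 0. The third Col-0 library of day 2 stood barely above day 0, and the log2 fold changes were 0.44 ± 0.149 in npf8.4-1 (edgeR adjusted p = 0.0219) and 0.47 ± 0.150 in Col-0 (edgeR adjusted p = 0.0174).

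JAZ9, the most abundant JAZ transcript in Col-0 at day 0, had 174, 119.9 and 119 TPM at day 2, against 112, 59.4 and 67.6 TPM at day 0, in npf8.4-1. Col-0 leaves had 199, 137 and 86.3 TPM at day 2, against 89.6, 75.5 and 69.0 TPM at day 0. The days stood apart in npf8.4-1 and overlapped in Col-0 through the third day 2 library. Log2 fold changes of 0.71 ± 0.283 in npf8.4-1 (edgeR adjusted p = 0.0463) and 0.77 ± 0.283 in Col-0 (edgeR adjusted p = 0.0363) were the calls lost most often: 7 of 14 alternatives ended the call in npf8.4-1 and 5 of 14 in Col-0.

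JAZ5, JAZ7 and JAZ8 are low to moderate in young leaves, and their fitted changes differed most between the genotypes, although no such difference passed its test. JAZ5, the paralog of JAZ6, had 28.1, 17.8 and 14.5 TPM at day 2, against 23.1, 11.3 and 18.6 TPM at day 0, in npf8.4-1. In Col-0 it had 24, 23.8 and 14.4 TPM at day 2, against 11.6, 8.01 and 5.25 TPM at day 0. The days overlapped in npf8.4-1, where the log2 fold change was 0.11 ± 0.344 (edgeR adjusted p = 0.798), and stood apart in Col-0, where it was 1.23 ± 0.355 (edgeR adjusted p = 0.0118).

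JAZ8, which carries its own co-repressor binding motif and resists degradation by COI1, had a like pattern. It had 5.42, 3.52 and 2.59 TPM at day 2, against 2.93, 2.60 and 4.46 TPM at day 0, in npf8.4-1. The Col-0 libraries held 4.84, 5.23 and 2.19 TPM at day 2, against 1.37, 1.60 and 0.729 TPM at day 0. Only the Col-0 day 0 libraries stood below all other libraries. The log2 fold change was 0.13 ± 0.361 in npf8.4-1 (edgeR adjusted p = 0.776) and 1.64 ± 0.396 in Col-0 (edgeR adjusted p = 0.00313). JAZ7, a paralog of JAZ8 known as a negative regulator of dark-induced leaf senescence, had 11.8, 5.46 and 4.04 TPM at day 2, against 3.87, 0.485 and 2.02 TPM at day 0, in npf8.4-1. In Col-0 leaves it had 14.8, 14.7 and 7.90 TPM at day 2, against 2.85, 3.07 and 1.25 TPM at day 0. The days did not overlap in either genotype, and JAZ7 had the largest fitted increases of the 10 genes, 1.67 ± 0.589 in npf8.4-1 (edgeR adjusted p = 0.0272) and 2.29 ± 0.572 in Col-0 (edgeR adjusted p = 0.00496).

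JAZ10 fell in both genotypes. This repressor is known for splice forms that lack the intact degradation motif and persist in the presence of the hormone. It had 1.89, 1.50 and 1.37 TPM at day 2, against 3.62, 3.06 and 3.70 TPM at day 0, in npf8.4-1. Col-0 libraries had 1.61, 2.16 and 1.62 TPM at day 2, against 2.62, 2.90 and 2.68 TPM at day 0. All 6 day 2 libraries stood below all 6 day 0 libraries. The log2 fold change was -1.21 ± 0.167 in npf8.4-1 (edgeR adjusted p = 3.83e-05) and -0.67 ± 0.168 in Col-0 (edgeR adjusted p = 0.00409), between -1.37 and -1.12 in npf8.4-1 and between -0.79 and -0.57 in Col-0 over 14 alternatives. Counts were deposited per gene, so the splice forms cannot be told apart. JAZ10 overlaps a long noncoding RNA gene on the other strand by 71 bases, and that gene had 0 reads in all libraries.

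MYC2, the transcription factor that the JAZ proteins repress, had 324, 247 and 239.9 TPM at day 2, against 196, 163 and 216 TPM at day 0, in npf8.4-1. In Col-0 it had 233, 215 and 124 TPM at day 2, against 133, 111 and 84.4 TPM at day 0. The days stood apart in npf8.4-1 and overlapped in Col-0, where the third day 2 library lay below the first day 0 library. By edgeR the log2 fold change was 0.41 ± 0.215 in npf8.4-1, which did not pass (adjusted p = 0.114), and 0.71 ± 0.217 in Col-0, which did (adjusted p = 0.0134). Fitted on the npf8.4-1 libraries alone, without the Col-0 groups, the increase in npf8.4-1 was 0.42 with an adjusted p of 0.0302. MYC2 shares 3241 bases with AT1G32630 on the opposite strand, and whether the counting kept the strands apart was not given in the sources used here. AT1G32630 had 114 to 312 reads per library, against 5666 to 22458 for MYC2.

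VSP2, a vegetative storage protein with acid phosphatase activity and a standard marker of the MYC2 branch, was the least even of the 10 genes among replicates at day 0. It had 334, 237 and 209 TPM at day 2, against 393, 46.9 and 51.0 TPM at day 0, in npf8.4-1. Col-0 leaves had 197, 172 and 117 TPM at day 2, against 42.3, 40.5 and 137 TPM at day 0. In each genotype 1 day 0 library, replicate 1 of npf8.4-1 and replicate 3 of Col-0, stood well above the other 2, and the days overlapped. The log2 fold change of 0.61 ± 0.802 in npf8.4-1 (edgeR adjusted p = 0.530) and of 1.10 ± 0.811 in Col-0 (edgeR adjusted p = 0.272) did not pass. Without replicate 1 of the npf8.4-1 day 0 libraries the log2 fold change in npf8.4-1 was 2.30 with an edgeR adjusted p of 0.00433. Without replicate 3 of the Col-0 day 0 libraries that in Col-0 was 1.86, which did not pass (edgeR adjusted p = 0.114). DESeq2 gave VSP2 no adjusted p.

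VSP1, the neighbouring and closely similar gene, was high in the same 2 day 0 libraries. It had 11.9, 10.6 and 8.72 TPM at day 2, against 133, 8.20 and 8.64 TPM at day 0, in npf8.4-1, and 6.04, 6.73 and 7.08 TPM at day 2, against 6.88, 6.63 and 44.1 TPM at day 0, in Col-0. Outside those 2 libraries VSP1 kept to a range of 6.04 to 11.9 TPM on both days. The ratio of VSP2 to VSP1 in TPM was 16.5 to 32.7 in the 6 day 2 libraries, against 2.96 to 6.15 in the 6 day 0 libraries, and the 2 high libraries had the lowest ratios of all, 2.96 and 3.10. How reads were shared between these 2 genes upstream is unknown, as it is for the pairs JAZ1 and JAZ2, JAZ5 and JAZ6, and JAZ7 and JAZ8, so values of paralogs are uncertain to that extent.

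**Figure D3:**
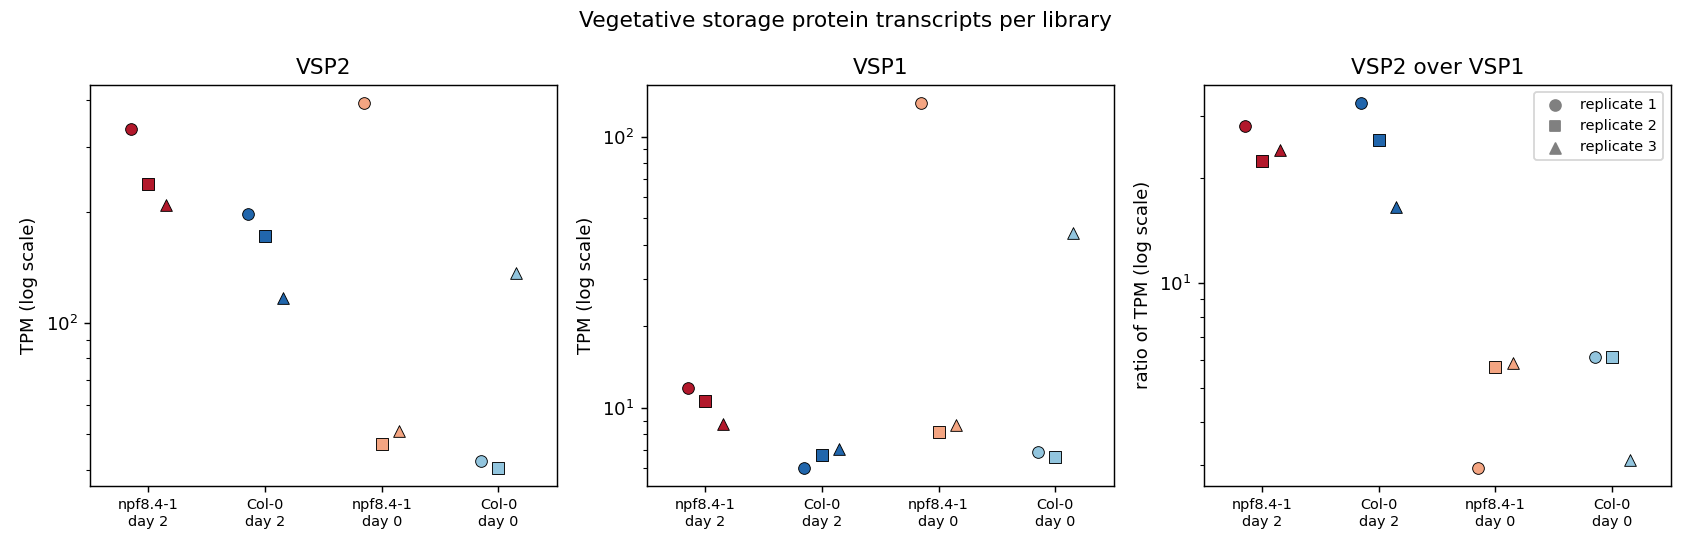
VSP2 (left) and VSP1 (middle) in TPM and their ratio (right) in each library, on log axes, with the replicate number as the marker shape. Replicate 1 of npf8.4-1 and replicate 3 of Col-0 at day 0 stand high for both genes, and all day 2 ratios lie above all day 0 ratios.

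The make-up of the JAZ transcript pool shifted with these changes. The 8 JAZ genes summed to 654, 475 and 466 TPM at day 2, against 367, 219 and 274 TPM at day 0, in npf8.4-1. In Col-0 they summed to 554, 516 and 303 TPM at day 2, against 249, 196 and 173 TPM at day 0. The days did not overlap within either genotype. JAZ6 made up 20.7% ± 1.08 of this sum in npf8.4-1 and 18.6% ± 1.48 in Col-0 at day 2, against 11.6% ± 0.489 in npf8.4-1 and 10.9% ± 1.11 in Col-0 at day 0. JAZ10 made up 0.299% ± 0.0138 in npf8.4-1 and 0.415% ± 0.122 in Col-0 at day 2, against 1.24% ± 0.225 in npf8.4-1 and 1.36% ± 0.268 in Col-0 at day 0. JAZ9 had the largest share in Col-0 at day 0, 38.1% ± 1.96, and JAZ1 in the other 3 groups, with 38.6% ± 0.533 in npf8.4-1 and 33.4% ± 4.80 in Col-0 at day 2 and 40.3% ± 1.98 in npf8.4-1 at day 0. Of all 13 JAZ genes in the annotation, the 8 held 77.2% to 82.9% of the summed TPM in npf8.4-1 and 72.6% to 79.9% in Col-0 at day 2.

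**Figure D4:**
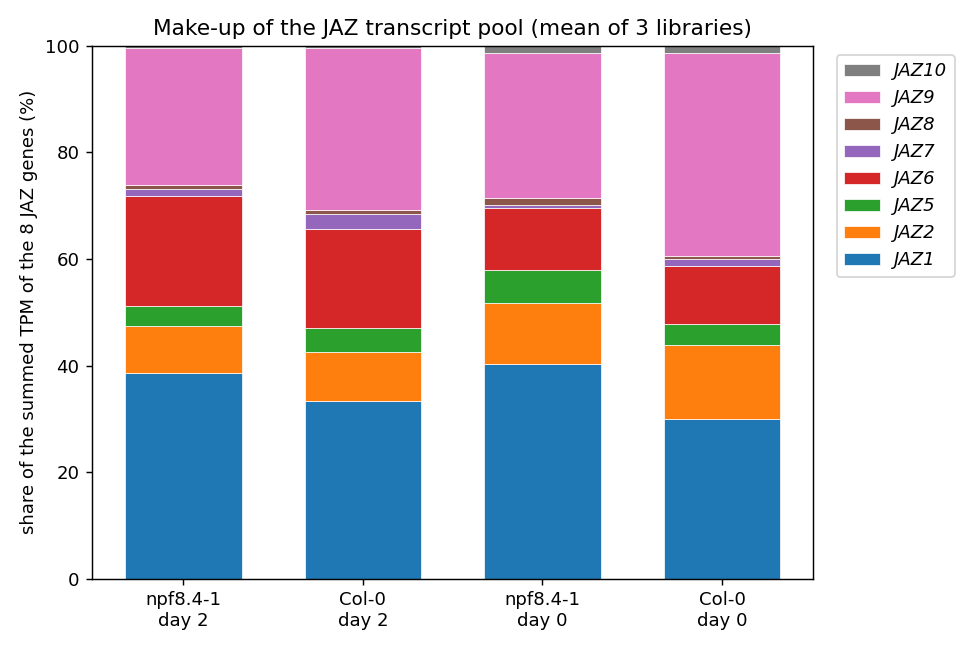
Share of each of the 8 JAZ genes in their summed TPM (percent, mean of 3 libraries) in npf8.4-1 and Col-0 at day 2 and at day 0. The JAZ6 segment is 20.7% and 18.6% of the sum at day 2, against 11.6% and 10.9% at day 0, and the JAZ10 segment is thinner at day 2.

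The ratio of summed JAZ to MYC2 transcripts, in TPM, was 2.02, 1.93 and 1.94 in npf8.4-1 libraries and 2.38, 2.40 and 2.44 in Col-0 libraries at day 2. At day 0 it was 1.87, 1.35 and 1.27 in npf8.4-1 and 1.86, 1.77 and 2.05 in Col-0. The ratio was higher at day 2 than at day 0 within each genotype, without overlap, and at day 2 every npf8.4-1 library lay below every Col-0 library. At day 0 the genotypes overlapped. This ratio was formed after the values were seen and is given without a test.

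Between the genotypes no member passed the test on either day, although several stood higher in npf8.4-1 at day 0. At day 2, 0 of 10 members were called in npf8.4-1 against Col-0, where 0.484% of tested genes were called higher and 0.953% lower. One member, MYC2, had an unadjusted p under 0.05, against 12.7% of tested genes, and DESeq2 called 0 members, against 4.04%. At day 0, 0 of 10 members were called, where 0.0309% of tested genes were called higher and 0.118% lower. Here 5 members (JAZ1, JAZ5, JAZ6, JAZ8 and MYC2) had an unadjusted p under 0.05, all higher in npf8.4-1, against 7.47% of tested genes in either direction. DESeq2 called 2 of them, JAZ8 and MYC2, against 1.19% of tested genes in either direction.

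MYC2 was the member with the smallest p on both days. At day 2 it had 324, 247 and 239.9 TPM in npf8.4-1, against 233, 215 and 124 TPM in Col-0, and at day 0 it had 196, 163 and 216 TPM in npf8.4-1, against 133, 111 and 84.4 TPM in Col-0. Every npf8.4-1 library stood above every Col-0 library of its day. Its log2 fold change was 0.50 ± 0.216 at day 2 (edgeR adjusted p = 0.351) and 0.80 ± 0.217 at day 0 (edgeR adjusted p = 0.245, and 0.0202 by DESeq2). JAZ8 had the largest fold change at day 0, a log2 value of 1.42 ± 0.400 (edgeR adjusted p = 0.262, and 0.0439 by DESeq2), and -0.09 ± 0.357 at day 2.

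JAZ5 had 1.08 ± 0.355 at day 0 and -0.05 ± 0.343 at day 2, and JAZ1 had 0.86 ± 0.280 at day 0 and 0.42 ± 0.277 at day 2. JAZ6 had 0.57 ± 0.178 at day 0 and 0.38 ± 0.175 at day 2. The remaining JAZ genes lay between -0.19 and 0.34 at day 0 and between -0.81 and 0.18 at day 2. VSP2 had 1.16 ± 0.812 at day 0, which became -0.52 without replicate 1 of npf8.4-1, and 0.68 ± 0.802 at day 2. None of these values passed the main edgeR test, the smallest adjusted p among them being 0.354 for JAZ6 at day 0. By single libraries, all npf8.4-1 libraries stood above all Col-0 libraries for JAZ6, MYC2 and VSP2 at day 2, 3 of 10 against 7.99% of tested genes above and 5.85% below, and for JAZ1, JAZ6, JAZ8, JAZ10 and MYC2 at day 0, 5 of 10 against 4.29% of tested genes above and 7.24% below. The members move together among replicates, as described below, so these are not 10 separate observations.

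The difference between the genotypes in the change from day 0 to day 2 was tested directly as an interaction. No member passed, and 0 of all tested genes did (0.0% higher and 0.0% lower) in edgeR's quasi-likelihood test; 3 members had an unadjusted p under 0.05, against 9.06% of tested genes, while DESeq2 called 0 members and 269 genes in all, 1.39%. All 10 fitted values were below 0, that is, lower in npf8.4-1 than in Col-0, but those of JAZ2, JAZ6, JAZ7, JAZ9 and VSP2 changed sign when 1 library was left out. The 3 members were JAZ8 at -1.51 ± 0.536, JAZ5 at -1.12 ± 0.493 and JAZ10 at -0.55 ± 0.236, with edgeR adjusted p-values of 0.400, 0.543 and 0.521. Calls for JAZ5, JAZ8 and MYC2 in Col-0 and not in npf8.4-1 are thus not shown to differ between the genotypes. The other 7 values lay between -0.62 for JAZ7 and -0.03 for JAZ2.

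Much of the spread among replicates was common to the JAZ genes and MYC2. After the 4 group means were taken from log2 CPM (counts per 1000000 reads), the 21 pairs among the 7 JAZ genes other than JAZ10 had Pearson r between 0.53 and 0.97 over the 12 libraries, with a median of 0.75. MYC2 had r between 0.66 and 0.90 with those 7, with a median of 0.75. JAZ10 was less tied to them, with r between 0.12 and 0.60, and VSP2 had r between -0.24 and 0.52 with the 9 other members. These values are a description, and the points share library preparation and depth.

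By library, all 8 JAZ genes lay below their group mean in replicates 2 and 3 of npf8.4-1 and replicate 3 of Col-0 at day 2, and in replicate 2 of npf8.4-1 and replicate 3 of Col-0 at day 0. The mean JAZ deviation in these 5 libraries was -0.14, -0.28, -0.38, -0.40 and -0.40 on the log2 scale, in that order. In replicate 1 of npf8.4-1 at day 2, all 8 lay above it, by 0.42 on average. VSP2 went against its JAZ companions in replicate 3 of Col-0 at day 0, where it lay 1.09 above its group mean and they lay below theirs.

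**Figure D5:**
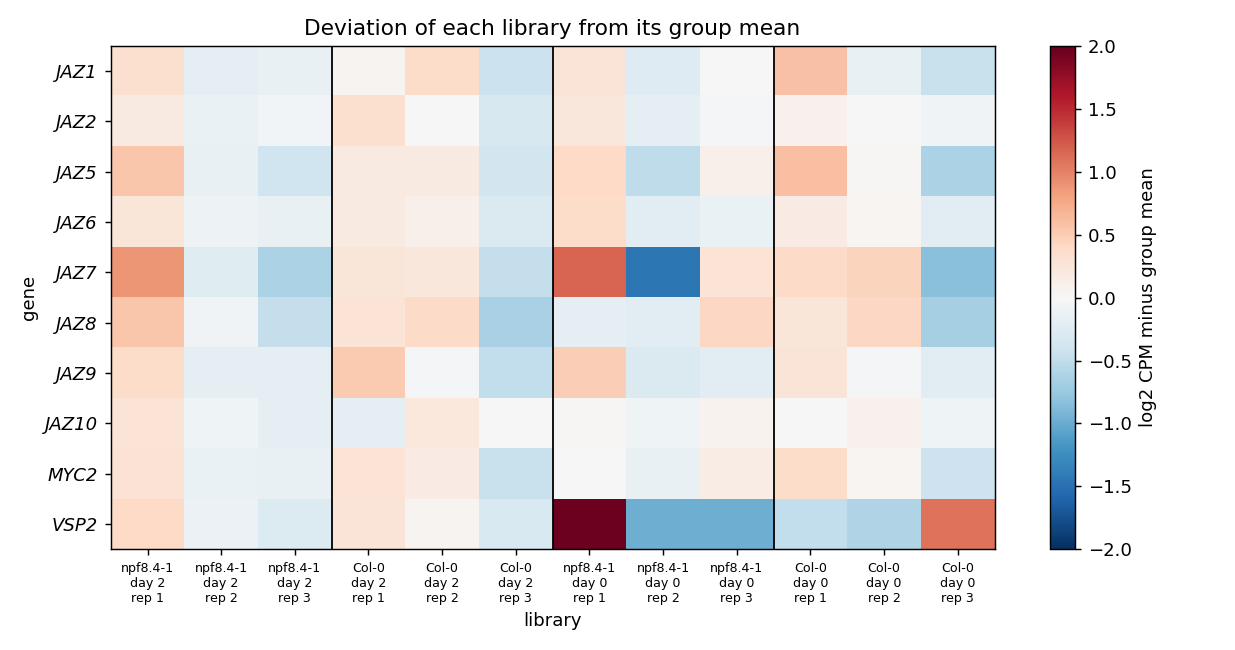
Deviation of each library (columns) from the mean of its group in log2 CPM, for each of the 10 genes (rows); red is above and blue below the group mean, and black lines part the groups. The JAZ1 to JAZ9 rows and MYC2 take like colours within most columns, and VSP2 is 1.96 above its group mean in replicate 1 of npf8.4-1 at day 0.

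Genes outside the 10 were ranked by their likeness to the mean standardised profile of the 8 JAZ genes. Over the 12 libraries with group means removed, the closest of 19406 genes were OPR1 (r = 0.99, rho = 0.95), AT2G26190 (r = 0.98, rho = 0.95), GGT1 (r = 0.98, rho = 0.98), GRP3S (r = 0.98, rho = 0.93) and AR781 (r = 0.97, rho = 0.97). OPR1 encodes an oxophytodienoate reductase and GGT1 a gamma-glutamyl transpeptidase. With the group means kept, so that r also carries the difference between the days, the closest were AR781 (r = 0.98, rho = 0.96), CIPK9 (r = 0.97, rho = 0.96), OPR3 (r = 0.97, rho = 0.91), AT5G58120 (r = 0.97, rho = 0.93) and AT5G57035 (r = 0.97, rho = 0.97). OPR3 encodes the reductase of jasmonate synthesis. OPR3 had 80.4 to 114 TPM in npf8.4-1 and 73.9 to 117 TPM in Col-0 at day 2, against 40.5 to 74.5 TPM in npf8.4-1 and 26.9 to 41.9 TPM in Col-0 at day 0.

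VSP2 had other companions. With group means removed, the genes most like it were AT4G17470 (r = 0.98, rho = 0.96), DFR (r = 0.97, rho = 0.96), which encodes an enzyme of anthocyanin synthesis, and the jacalin-related lectin gene JAL23 (r = 0.97, rho = 0.94), and VSP1 had r = 0.97 and rho = 0.86. With group means kept they were the cytochrome P450 gene CYP81D11 (r = 0.97, rho = 0.99), AT4G17470 (r = 0.96, rho = 0.92) and the lipoxygenase gene LOX2 (r = 0.93, rho = 0.87). With group means removed, the 2 high day 0 libraries were the points farthest above the mean of VSP2, at 1.96 and 1.09 on the log2 scale.

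Among the other repressors and partners of the pathway more genes rose than fell. Of 15 partner genes, 9 rose and 1 fell between day 0 and day 2 in npf8.4-1 by edgeR, where 32.5% of all tested genes rose and 31.6% fell. In Col-0, 8 rose and 1 fell, where 29.6% of all tested genes rose and 30.4% fell. The median log2 fold changes were 0.54 in npf8.4-1 and 0.45 in Col-0. JAZ3, JAZ11, JAZ12 and JAZ13 rose in both genotypes, with JAZ11 at 0.92 in npf8.4-1 and 0.81 in Col-0, and JAZ4 did not pass in either. The MYC2 relatives MYC3, MYC4 and MYC5 rose in both, MYC5 by 1.86 in npf8.4-1 and 1.14 in Col-0. The receptor gene COI1 rose by 0.65 in npf8.4-1 and 0.48 in Col-0. The co-repressor gene TPL was the 1 partner that fell, by 0.45 in npf8.4-1 and by 0.33 in Col-0, and the adaptor gene NINJA did not pass, at 0.03 in npf8.4-1 and 0.06 in Col-0.

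Most output genes of the pathway rose in both genotypes. Of 11 listed output genes 10 were tested, and 9 rose in npf8.4-1 and 8 in Col-0, with no decrease called. The medians were 3.01 and 2.85 on the log2 scale. Of all tested genes 32.5% rose and 31.6% fell in npf8.4-1, and 29.6% rose and 30.4% fell in Col-0. The cystine lyase gene CORI3 averaged 98.1 ± 16.6 TPM at day 2, against 15.0 ± 11.7 TPM at day 0, in npf8.4-1, and 84.2 ± 7.04 TPM at day 2, against 12.3 ± 4.51 TPM at day 0, in Col-0. The medians rest in part on genes near 0 reads at day 0, where fitted folds are large: TAT3 had 0 to 11 reads per library at day 0, and the defensin gene PDF1.2a had 0 to 10. The abundant myrosinase gene TGG1 rose by 0.72 in npf8.4-1 and 0.56 in Col-0 on the log2 scale. CLH1 rose by 1.09 in npf8.4-1 and 0.91 in Col-0. The transcription factor gene NAC019 rose by 3.67 in npf8.4-1 and 2.98 in Col-0. VSP1 was the 1 tested output gene that passed in neither genotype, at -2.318 ± 1.149 in npf8.4-1 and -1.555 ± 1.174 in Col-0 (log2, SE). VSP2 did not pass in the main test either, but its fitted values were above 0, at 0.61 in npf8.4-1 and 1.10 in Col-0. As given above, VSP2 passed in npf8.4-1 once replicate 1 of its day 0 libraries was left out. Of 22 genes of jasmonate synthesis and turnover 18 were tested, and 11 rose in npf8.4-1 and 12 in Col-0, with none called lower. The shares of all tested genes given for the output genes apply here too. Among them were AOS, at 0.90 in npf8.4-1 and 1.19 in Col-0, and JAR1, which makes the active conjugate, at 0.82 and 0.69.

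Rapid touch and wounding transcripts were measured beside these genes because handling can move jasmonate genes within minutes. Of 14 such genes, 2 rose and 2 fell in npf8.4-1 between day 0 and day 2, where 32.5% of all tested genes rose and 31.6% fell. In Col-0, 11 rose and 0 fell, where 29.6% of all tested genes rose and 30.4% fell. None was called between the genotypes on either day. The interaction called none of the 14, and 0 of all tested genes, by edgeR. The median fitted interaction of the 14 was -1.04 on the log2 scale, against 0.02 over all tested genes. A test that called no gene at all cannot decide this question. A difference between the genotypes in the change of these genes is thus neither shown nor excluded. The summed level of the 14 genes was 1896 to 2585 TPM in npf8.4-1 and 3021 to 3877 TPM in Col-0 at day 2. At day 0 it was 1694 to 2607 TPM in npf8.4-1 and 1020 to 1980 TPM in Col-0. The lowest library of all was replicate 3 of Col-0 at day 0, which was also the lowest of its group for MYC2 and for every JAZ gene but JAZ10. At day 2 every npf8.4-1 library lay below every Col-0 library for this sum. Of 7 vascular markers, none was at 0 in any library. Their summed level was 448 to 521 TPM in npf8.4-1 and 435 to 513 TPM in Col-0 at day 2. At day 0 it was 176 to 238 TPM in npf8.4-1 and 209 to 259 TPM in Col-0. The sugar transporter genes SUC2, SWEET11 and SWEET12 rose most by ratio. SUC2 averaged 173.1 TPM in npf8.4-1 and 182.3 TPM in Col-0 at day 2, against 56.0 and 69.9 TPM at day 0. XCP1, XCP2, IRX3 and APL rose less. XCP2 averaged 97.4 TPM in npf8.4-1 and 88.1 TPM in Col-0 at day 2, against 66.9 and 68.7 TPM at day 0. The summed level of 2 myrosin cell markers, TGG1 and TGG2, was 9422 to 9737 TPM in npf8.4-1 and 8483 to 10210 TPM in Col-0 at day 2, against 5131 to 5973 TPM in npf8.4-1 and 6121 to 6192 TPM in Col-0 at day 0. TGG1 is also 1 of the output genes above. The summed level of 6 stomatal markers was 134 to 156.5 TPM in npf8.4-1 and 104 to 143 TPM in Col-0 at day 2. At day 0 it was 103 to 122 TPM in npf8.4-1 and 117 to 127 TPM in Col-0. The genes of this list did not move alike. TMM averaged 20.2 TPM in npf8.4-1 and 15.1 TPM in Col-0 at day 2, against 33.8 and 34.4 TPM at day 0. SLAC1 averaged 13.2 TPM in npf8.4-1 and 10.7 TPM in Col-0 at day 2, against 3.58 and 4.16 TPM at day 0. For 2 trichome markers the sum was 10.9 to 12.65 TPM in npf8.4-1 and 10.6 to 12.5 TPM in Col-0 at day 2. It was 11.9 to 16.5 TPM in npf8.4-1 and 14.2 to 17.1 TPM in Col-0 at day 0. The part of any of these lists in the changes of the members was not tested.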

How the data were processed

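Young-leaf poly(A) RNA was sequenced in 12 libraries from a stranded mRNA kit, per the labels' protocols, and titles gave the groups. The authors deposited 1 table per library with whole-number counts of exon reads and, per the file headers, TPM and RPKM values for each gene. The submitters' processing notes name bcl2fastq 2.17.1.14 and TAIR10. Which aligner and counter were used, and how strand and reads shared by paralogs were handled, was not given in the sources used here. Levels are the deposited TPM, which are relative to each library's total; the deposited RPKM were not used.

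The main test was the quasi-likelihood test of edgeR 4.0.16 (with limma 3.58.1, in R 4.3.3) on the counts, with TMM normalisation, filterByExpr, a robust fit and a mean for each of the 4 groups. Benjamini-Hochberg adjustment covered 19416 genes, and the threshold was 0.05. The SE of a log2 fold change comes from its quasi-likelihood statistic. Correlations used log2 CPM with a prior count of 2. Alternatives were scaling by DESeq2 size factors or by library totals, and the DESeq2 test (1.42.0). Other filters were 1 read summed over the libraries, or 1 CPM in every library of a group. Further fits used a replicate block or only the groups compared. The last left out replicate 3 of both day 2 groups, or each library in turn.

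Simulated data in the design of npf8.4-1 against Col-0 at day 2 gave recovery of 44.8% at 1.5-fold, 73.1% at 2-fold and 92.4% at 4-fold. Of the calls 8.50% were false, over 19416 genes. Each simulated gene had the same mean in all groups, apart from a drawn set changed in npf8.4-1 at day 2. The difference between the days was not simulated, so these shares need not hold for the data. A check of the pairs of libraries within each group found none deposited in duplicate. Pairs across groups were not checked. Library totals were 28761674 to 34282716 reads, and low counts limit the precision of JAZ7, JAZ8 and JAZ10. All 10 genes have the same start and end in the deposited tables and in the RefSeq annotation (TAIR10.1) from which promoters were read; of the 37242 loci, 36810 were in that annotation.

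The 10 genes, the lists and the naming rule were chosen with earlier results of these data known. The rule names the 10 genes, NPF8.4, other JAZ and MYC genes, COI1, NINJA, TPL and VSP1. It also names up to 4 called genes of each list by smallest p. The genes most alike in profile were named too (5 for the JAZ genes, 3 for VSP2). TAT3 and PDF1.2a, named for their low counts, AT1G32630 and single marker genes lie outside this rule.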

Additional observations from a re-analysis of the deposited data

How the results depend on the processing

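JAZ6 and JAZ10 kept their calls between day 0 and day 2 in both genotypes under every alternative run. Of the single-gene values recomputed, 678 kept their direction and side of the threshold, 28 lost a call, 6 gained one and 33 changed sign. For npf8.4-1 against Col-0 at day 0, the members called higher were 2 with the DESeq2 test and 2 with a replicate block, against 0 in the main test; the cause was not tested. The filter of at least 1 read summed over the libraries left 3 members called higher at day 2 than at day 0 in npf8.4-1. It adjusted over 24955 genes. With each library left out in turn, the count of members called higher ran from 1 to 6 in npf8.4-1 and from 5 to 8 in Col-0. These fits had 1 library fewer in a group.

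Replicate numbers were not taken to pair the libraries, since the labels do not say what a number shares. Of 18 same-number pairs, 10 had a correlation of deviations over 0.1 (range -0.17 to 0.42). Pairs with different numbers ran from -0.44 to 0.31. Same-number pairs of replicates 1 and 3 were all positive, from 0.06 to 0.42, and those of replicate 2 ran from -0.17 to 0.02. Whether equal numbers mark something shared is thus not settled. The block moved the calls between genotypes to 173 at day 0, against 29 without it, to 615 at day 2, against 279, and in the interaction to 43, against 0. With it, 46 of 50 values for the members kept direction and call, JAZ6 and MYC2 gained a call in npf8.4-1 against Col-0 at day 0, and JAZ9 turned to -0.00971 there and to 0.00302 in the interaction.

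Over libraries left out in turn, these log2 values crossed 0. In npf8.4-1 against Col-0 at day 0, JAZ7 ran from -0.95 to 0.26, JAZ9 from -0.27 to 0.16 and VSP2 from -0.52 to 1.93. At day 2, JAZ5 ran from -0.37 to 0.14, JAZ8 from -0.43 to 0.12 and JAZ9 from -0.28 to 0.26. For day 2 against day 0 in npf8.4-1, JAZ5 ran from -0.22 to 0.33 and JAZ8 from -0.21 to 0.37. In the interaction, JAZ2 ran from -0.21 to 0.14, JAZ6 from -0.36 to 0.0113, JAZ7 from -1.21 to 0.14, JAZ9 from -0.30 to 0.24 and VSP2 from -1.26 to 1.2. For day 2 against day 0 in npf8.4-1, scaling by library totals moved the median log2 fold change of all tested genes to 0.10. It was 0.03 in the main test. That scaling left 4 members called higher at day 2 in npf8.4-1.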
